A study of Caenorhabditis elegans with 19 samples.

Results

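At the L3 larval stage, the double mutant xol-1 sex-1 of Caenorhabditis elegans was compared with wild type, using all 8 libraries of these genotypes among the 19 samples of the series, 4 per genotype. Wild type was the N2 Bristol strain, and the double mutant was strain EKM198, which carries xol-1(ne4472) and sex-1(gk829), both on the X chromosome. Whole populations of hatched larvae were fed for 24 h on bacteria before poly(A) RNA was sequenced with a directional kit. The double mutant was a single strain and differed from wild type at both labelled loci, so the alleles cannot be told apart from each other, from other differences between the strains, or from a difference in developmental progress after 24 h of feeding. Levels are FPKM, fragments per kilobase of transcript scaled to library size. L3 values of the xol-1(ne4472) single mutant, strain WM458 (4 libraries), are given side by side where they help to place a level, without a test.

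xol-1 is the switch gene of worm sex determination. When it is active the embryo takes the male fate, and in XX animals it is kept off, which allows the dosage compensation complex to lower transcription from both X chromosomes. sex-1 encodes a nuclear hormone receptor that acts as an X signal element, reporting the number of X chromosomes by repressing xol-1. Both genes act in the early embryo, and an L3 larva is a stage of rapid growth in which the germ line proliferates, the vulva and gonad are formed, and a new cuticle is built before each molt.

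The larvae of the double mutant differed from wild type in genes of several tissues. More genes were called higher than lower in lists of the digestive tract (pharyngeal muscle and cuticle, lysosomal and gut proteases), of body wall muscle, of the germ line, of the cytosolic ribosome and of the heat shock response. More were called lower than higher in lists of neuropeptides, ion channels, hedgehog-related proteins, the molting apical matrix and transthyretin-related proteins. On log2(FPKM + 1), 3507 of 13583 genes tested were called higher in the double mutant (25.8%) and 3861 lower (28.4%), in all 54.2% of genes, by limma with Benjamini-Hochberg adjusted p under 0.05. With a change of at least 1.5-fold required as well, 1443 genes were higher (10.6%) and 1065 lower (7.84%). In 6776 genes (49.9%) the 4 double-mutant values did not overlap with the 4 of wild type. Each count of list members below is read against the shares of 25.8% and 28.4%, the median log2 fold change of all genes was -0.03, and "called" refers to this fit. A fold change on log2(FPKM + 1) understates the change of genes with low values.

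**Figure D1:**
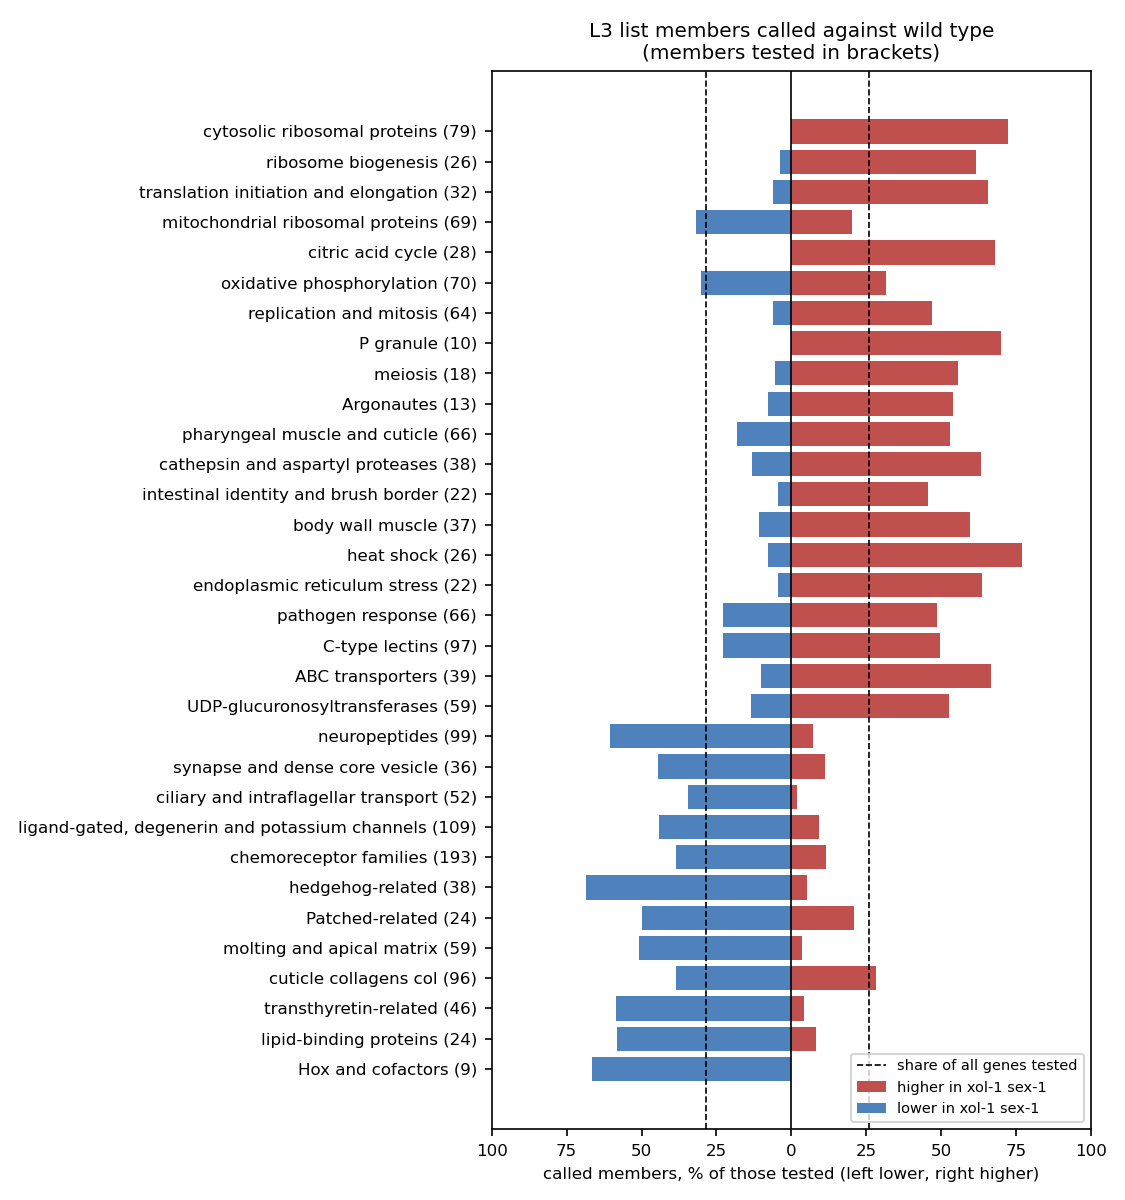
Share of the tested members of 32 gene lists called higher (red, to the right) or lower (blue, to the left) in L3 xol-1 sex-1 than in wild type, in percent of members tested. Dashed lines mark the shares among all 13583 genes, 25.8% higher and 28.4% lower. Cytosolic translation, germ line, digestive, muscle and stress lists extend past the right line, and neuropeptide, hedgehog-related and molting lists past the left line.

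The 8 libraries had like FPKM scales. Column sums ran from 1490760 to 1646310 FPKM and upper quartiles from 28.9 to 30.02 FPKM, values that do not measure depth. Depth was read from the steps between low values and differed more. On a 1 kb transcript 1 FPKM was worth from 20.5 fragments (double-mutant replicate 2) to 29.4 fragments (wild-type replicate 1). Wild-type replicate 1 stood apart from the other wild-type libraries in a set of pharyngeal and digestive genes, and results that rest on it are given with and without it. Fold changes also ran with transcript length. The median log2 fold change went from -0.16 in the tenth of genes with the shortest transcripts (up to 516 bases) to 0.17 in the tenth with the longest (2875 bases or more), and the share called higher from 14.5% to 42.8%. Lists of very short or very long genes are therefore also given with each library centred within bins of transcript length, a setting chosen after seeing the data, in which 3551 genes were higher (26.1%) and 3452 lower (25.4%). The cause of the length trend was not tested.

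**Figure D2:**
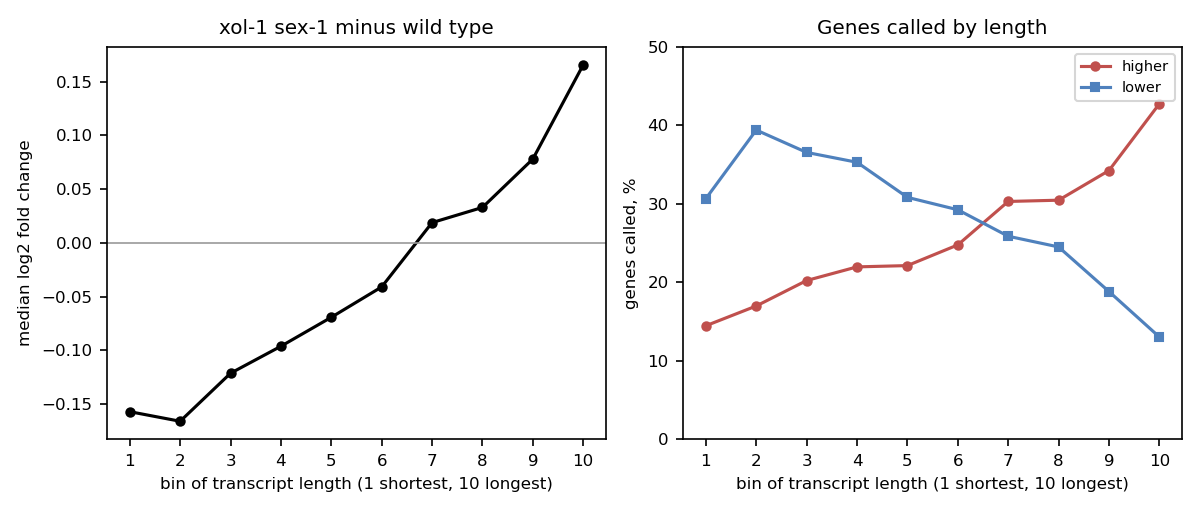
Median log2 fold change (left) and percent of genes called higher or lower (right) in 10 bins of transcript length, L3 xol-1 sex-1 minus wild type. The median rises from -0.16 in bin 1 to 0.17 in bin 10, and the share called higher from 14.5% to 42.8%.

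The altered genes did not separate the genotypes by RNA level. sex-1 (WBGene00004786, X 10201329 to 10205421; coordinates here and below are WBcel235) was at 3.47, 4.16, 3.36 and 4.06 FPKM in the double mutant and at 4.90, 5.59, 4.05 and 4.16 FPKM in wild type. The groups overlapped, and the log2 fold change of -0.25, SE 0.12 was not called (limma adjusted p = 0.102). xol-1 was listed at 0 in 3 of 4 libraries of each genotype and did not pass the filter on low values.

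Several of the largest changes were in genes close to silent in one genotype. F57F4.2 stood at 23, 23.4, 32.5 and 28 FPKM in the double mutant and 0.409, 0.192, 0.569 and 0.268 FPKM in wild type (log2 fold change 4.34). Y75B12B.8 stood at 10.7, 17.5, 14.9 and 25 FPKM against 0.424, 0.0661, 0.168 and 0.0694 FPKM, and Y71F9AM.8 at 8.32, 7.38, 12.5 and 13.9 FPKM with every wild-type library listed at 0. In each of these genes every double-mutant library was far above every wild-type library. spp-27, of the caenopore family of small membrane-acting peptides, was at 47.7, 24.5, 28.6 and 44.2 FPKM against 1.18, 4.92, 1.65 and 1.35 FPKM, and F37B4.15 at 38 ± 21.9 against 2.36 ± 1.03 FPKM (mean ± SD, n = 4 each, as everywhere below). WBGene00012620, for which the annotation gives no symbol, was at 11.6 ± 5.39 against 0 ± 0 FPKM. The other genes among the 10 largest rises, ctsa-1.2, F28B4.3, R193.2 and cpr-5, had a high wild-type replicate 1 and are described with the digestive tract.

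The largest falls included pcp-3, a member of the prolyl carboxypeptidase-like family, at 3.39, 4.58, 4.02 and 4.43 FPKM against 82.5, 89.5, 81.4 and 85 FPKM in wild type. T05F1.8 (0.236 to 0.954 against 20.8 to 28.9 FPKM), F49F1.9 (0.0903 to 0.226 against 8.82 to 8.98 FPKM) and tnt-3, a troponin T gene of muscle, were close to absent in the double mutant. tnt-3 was listed at 0 in all 4 double-mutant libraries and at 3.24, 6.13, 1.99 and 4.96 FPKM in wild type. The xol-1 single mutant held the same low levels of these 4 genes, with 4.11 ± 0.436 FPKM of pcp-3, 0 to 0.402 FPKM of T05F1.8, 0 to 0.163 FPKM of F49F1.9 and tnt-3 listed at 0 in all 4 libraries. Other falls were graded: C17F4.12 was at 7.79 ± 2.07 FPKM in the double mutant, 28.6 ± 3.94 in xol-1 and 73.2 ± 14.8 in wild type, and C17F4.11, on the same chromosome, at 4.37 ± 0.804, 10.3 ± 2.59 and 24.7 ± 4.86 FPKM. ppt-1, a palmitoyl-protein thioesterase of the lysosome, fell from 23.3 ± 2.88 to 4.04 ± 0.947 FPKM and C16D9.5 from 7.93 ± 2.53 to 0.364 ± 0.252 FPKM. Y46E12A.5 took another order, with 5.39 ± 1.66 FPKM in the double mutant, 31.6 ± 7.69 in wild type and 78.1 ± 12.5 in xol-1. nspb-2, a short nematode-specific peptide gene, fell from 38.3 ± 3.87 to 4.02 ± 0.888 FPKM (log2 fold change -2.98, SE 0.13). ctsa-1.2, spp-27, Y71F9AM.8, ppt-1 and C17F4.11 overlap a gene on the opposite strand and nspb-2 one on the same strand, and whether strand was used in the counting is not stated, so their levels are uncertain. The same limit holds for these genes described below: aco-2, akt-1, alp-1, cha-1, coh-4, col-142, col-19, cts-1, cutl-23, dao-5, deps-1, eif-6, elo-5, glp-1, grd-12, grl-1, hlh-1, hsp-70, idpc-1, lin-28, lin-29, lon-3, lys-8, mcm-7, mec-17, mec-4, mek-2, mex-1, mlt-10, mrp-4, nlp-2, nlp-46, nspb-1, pgal-1, prg-1, rpl-28, sod-3, spp-15, tnc-2, tni-4, tra-2, ttr-32, ucr-2.3, unc-104, unc-17, unc-52, unc-64 and vit-2.

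**Figure D3:**
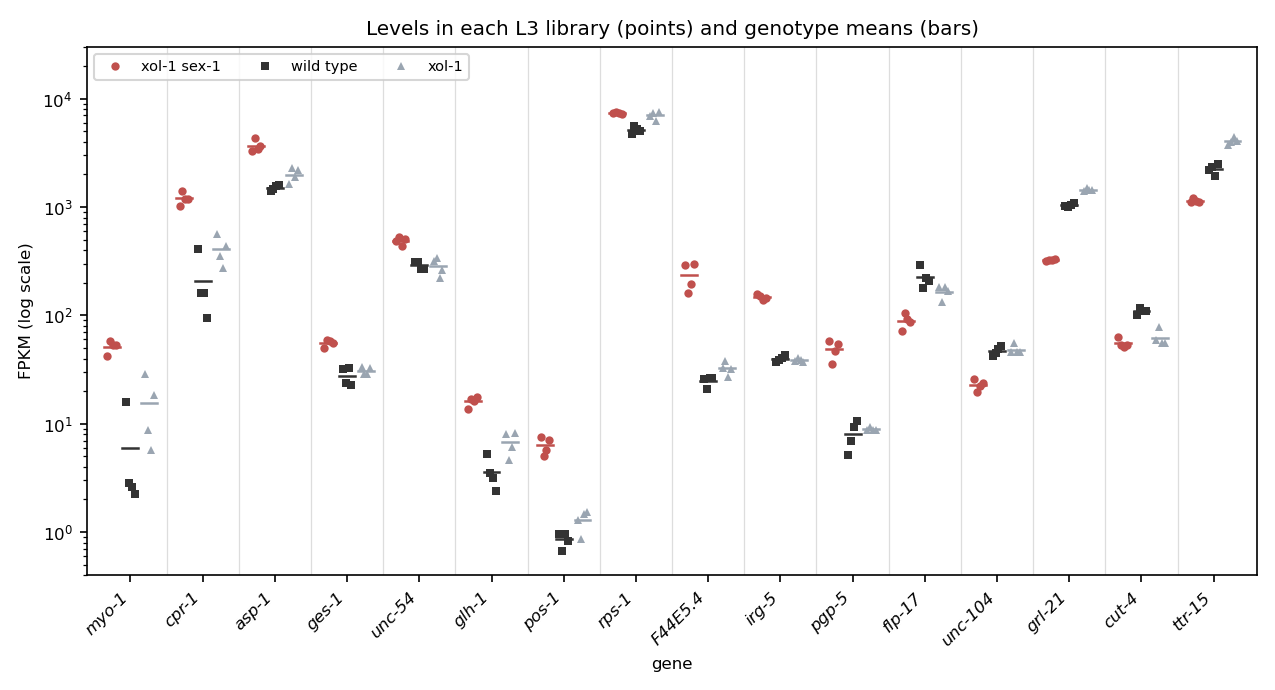
FPKM on a log scale of 16 genes in each L3 library of xol-1 sex-1 (red circles), wild type (black squares) and xol-1 (grey triangles); short bars are means of 4. In myo-1 and cpr-1 one wild-type library lies above the other 3, and in grl-21, irg-5 and rps-1 the double mutant and wild type form tight separate groups.

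The pharynx, the neuromuscular pump that grinds bacteria and that is lined with its own cuticle, held some of the largest rises. Of 86 genes in a list headed pharyngeal muscle and cuticle, 66 were tested, 35 were called higher and 12 lower, with a median log2 fold change of 0.38. Many members of this list are pqn genes, a family grouped by symbol, and whether each is a pharyngeal gene was not checked. The pqn genes were among both the higher calls, such as pqn-13, and the lower calls, such as pqn-10. These were bulk samples of whole worms, in which fewer cells of a type and less RNA per cell cannot be told apart. The myosin heavy chain of pharyngeal muscle myo-1 (WBGene00002348, I 7258946 to 7267057) was at 42.0, 57.4, 52.8 and 53.35 FPKM in the double mutant and at 15.9, 2.85, 2.63 and 2.25 FPKM in wild type. Its partner myo-2 was at 36.5, 47.2, 43.1 and 46.3 FPKM against 13.6, 2.23, 2.17 and 1.94 FPKM. In both genes the groups did not overlap, and wild-type replicate 1 lay between the other wild-type libraries and the double mutant. The log2 fold changes were 3.31, SE 0.50 for myo-1 (limma adjusted p = 0.00086) and 3.27, SE 0.49 for myo-2, and 3.87 and 3.82 without wild-type replicate 1. Levels in xol-1 also varied, with 28.5, 8.82, 5.67 and 18.6 FPKM of myo-1.

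Not every pharyngeal gene moved this way. tnc-2, the troponin C of pharyngeal muscle, was called lower, at 103, 141.9, 148 and 135 FPKM against 212, 173, 172 and 186 FPKM (log2 fold change -0.50, SE 0.12). The troponin I gene tni-4 was at 194 ± 33.1 FPKM against 226 ± 22.5 FPKM, and pha-4, the FoxA factor that specifies the pharynx, at 34.1 ± 3.68 against 36.2 ± 3.70 FPKM; neither was called. Troponin T tnt-4, in contrast, rose from 4.71 ± 2.25 to 30.7 ± 3.78 FPKM. The abu genes, which encode proteins of the pharyngeal cuticle, showed the pattern of the myosins. abu-8 was at 47.3, 58.1, 58.5 and 60 FPKM against 24.7, 3.48, 3.30 and 2.25 FPKM, and abu-14 at 216 ± 32 FPKM against 45.3 ± 34 FPKM. Among the phat genes, which are expressed in pharyngeal glands, phat-7 was at 305, 506, 348 and 401 FPKM against 82.9, 33.4, 32.4 and 20.5 FPKM and phat-4 at 205 ± 35.1 FPKM against 28.8 ± 23.1 FPKM. By family, 8 of 10 abu genes tested were called higher and 2 lower (median 2.2), 7 of 8 phat genes higher and 0 lower (median 1.51), and 7 of 7 idpc genes higher (median 2.94), families that were picked out after their values were seen. In idpc-1 the wild-type libraries were at 30.6, 5.92, 7.24 and 5.04 FPKM, so replicate 1 again stood above the others. Without wild-type replicate 1 the pharyngeal list held 33 higher and 12 lower calls.

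Digestive enzymes rose with the pharynx. Of 38 genes tested in a list of cathepsin-like and aspartyl proteases, 24 were called higher and 5 lower, with a median of 0.66. The list also held the ceramidase genes asah-1 and asah-2, which are not proteases and were both called higher. cpr-1, a cathepsin B-like protease of the gut, was at 1026, 1401, 1181 and 1192 FPKM in the double mutant and at 409, 162, 160.3 and 94.0 FPKM in wild type (log2 fold change 2.74, SE 0.39, limma adjusted p = 0.000643). cpr-5 was at 613 ± 95 against 62.9 ± 40.1 FPKM, cpr-4 at 879.6 ± 125 against 240.3 ± 99.3 FPKM, and the cathepsin A-like gene ctsa-1.2 at 209.3, 312, 259 and 255 FPKM against 37.1, 11.9, 9.15 and 5.55 FPKM. In these 4 genes wild-type replicate 1 was the highest of its group. The aspartyl proteases asp-1, asp-3 and asp-6, chosen after their values were seen, were more even across libraries. asp-1 (WBGene00000214, V 19049562 to 19050752) was at 3303, 4328, 3434 and 3667 FPKM against 1402, 1458, 1565 and 1599 FPKM (log2 fold change 1.28, SE 0.09, limma adjusted p = 1.08e-05). asp-3 rose from 409.6 ± 33.6 to 1244 ± 90.4 FPKM and asp-6 from 477 ± 77.9 to 1930.5 ± 262 FPKM. Of 12 asp genes tested 8 were called higher and 1 lower, which was asp-4 (log2 fold change -0.35). asah-1, an acid ceramidase, rose from 12.5 ± 7.37 to 96.5 ± 14.8 FPKM. F28B4.3 and R193.2, which are among the 10 largest rises, had double-mutant means of 66.2 ± 11.1 and 22.4 ± 3.19 FPKM. In wild type F28B4.3 was at 12.5, 1.71, 1.75 and 1.38 FPKM and R193.2 at 4.69, 0.559, 0.776 and 0.372 FPKM, with the same high replicate 1. Without that library 24 genes of the protease list were called higher and 6 lower.

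Changes in intestinal genes were smaller. Of 22 genes of intestinal identity and the brush border tested, 10 were called higher and 1 lower, with a median of 0.30. The gut esterase ges-1 was at 49.7, 59.6, 58.3 and 55.1 FPKM against 31.9, 23.6, 32.4 and 22.6 FPKM, with log2 fold change 1.0, SE 0.12, limma adjusted p = 0.000163. elt-2, the GATA factor that maintains intestinal identity, was at 45.3 ± 2.89 FPKM against 34.7 ± 2.29 FPKM, and elt-7 at 22.7 ± 2.12 against 17.6 ± 1.9 FPKM. elt-4, another GATA factor, was at 6.37 ± 1.77 against 7.04 ± 0.985 FPKM and was not called. The microvillar actin act-5 rose from 657 ± 46.7 to 1025 ± 86.6 FPKM and the peptide transporter pept-1 from 125 ± 9.0 to 202 ± 24.6 FPKM. Of the 21 V-ATPase subunits, proton pumps that acidify lysosomes and the gut lumen, 11 were called higher and 4 lower, the latter 2 without double-mutant replicate 1 or 4 or wild-type replicate 1. The intestinal subunit vha-6 was called higher, at 199.9 to 258 FPKM in the double mutant and 83.8 to 94.1 FPKM in wild type.

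Body wall muscle genes were higher as well. Of 37 genes tested, 22 were called higher and 4 lower, with a median of 0.27. unc-54, the major myosin heavy chain, was at 481, 531, 441 and 504.3 FPKM against 309, 311, 268 and 271 FPKM (log2 fold change 0.75, SE 0.08, limma adjusted p = 5.96e-05). The second body wall myosin myo-3 rose from 109 ± 6.98 to 180.4 ± 10.9 FPKM and paramyosin unc-15 from 363 ± 23.6 to 556 ± 46.2 FPKM. Genes of the attachment sites split. The perlecan gene unc-52 rose from 2.91 ± 0.510 to 8.21 ± 0.762 FPKM, vinculin deb-1 from 0.686 ± 0.425 to 2.46 ± 0.252 FPKM, and the Z-line protein alp-1 from 1.77 ± 0.825 to 6.38 ± 0.577 FPKM. The adhesion components parvin pat-6 and the PINCH protein unc-97, fell from 204 ± 5.67 to 149 ± 5.59 and from 206 ± 7.23 to 165 ± 3.04 FPKM. With libraries centred within length bins the list held 23 higher and 5 lower calls. hlh-1, the MyoD factor, ran from 1.53 to 5.06 FPKM within wild type alone and was not called.

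**Figure D4:**
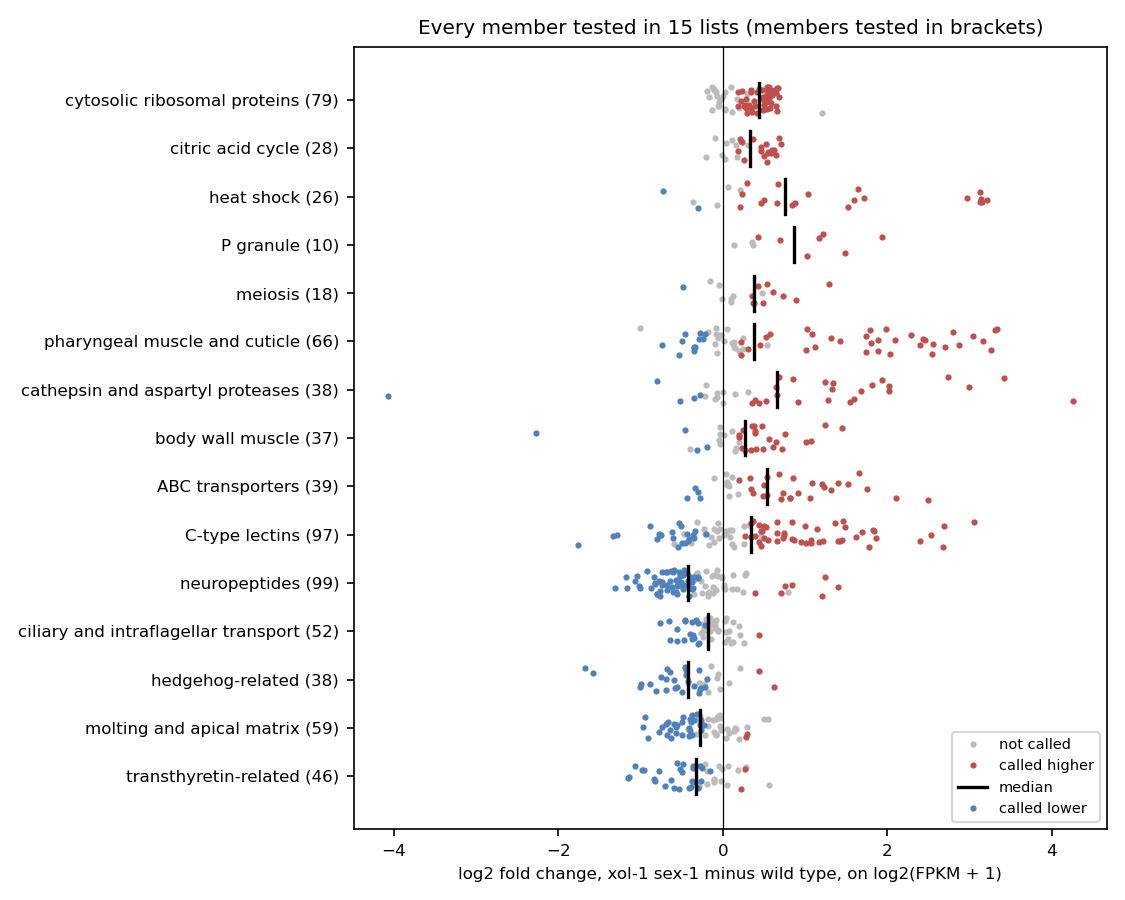
Log2 fold change of every tested member of 15 lists, xol-1 sex-1 minus wild type at L3. Red points were called higher, blue lower and grey not called, and black bars are medians. Pharyngeal and protease genes reach log2 fold changes above 3, cytosolic ribosomal genes lie around a median of 0.45, and neuropeptide and hedgehog-related genes lie mostly below 0.

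Germline RNA was low at this stage in all libraries and was higher in the double mutant. In the list of P granule genes, components of the RNA-rich granules of germ cells, 10 of 17 genes passed the filter, 7 were called higher and 0 lower, with a median of 0.86; without wild-type replicate 1 the counts were 8 and 0. Without a filter on low values, where 20.9% of all 20174 genes were higher and 19.2% lower, 10 of 17 were higher and 0 lower. The helicase glh-1 was at 13.8, 16.9, 16.3 and 17.6 FPKM against 5.22, 3.47, 3.15 and 2.38 FPKM (log2 fold change 1.94, SE 0.17, limma adjusted p = 2.73e-05). The Piwi protein prg-1 was at 11.6, 12.5, 13.1 and 12.595 FPKM against 5.34, 5.44, 4.0 and 4.32 FPKM, and deps-1 at 3.05 ± 0.702 against 0.455 ± 0.324 FPKM. pgl-1 and pgl-3, the defining granule scaffolds, were below the filter: pgl-1 was listed at 0 in all double-mutant libraries and in 3 of 4 wild-type libraries, and pgl-3 was at 0.211, 0.861, 0.541 and 0.876 FPKM against 0.442, 0.335, 0 and 0 FPKM.

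Genes of the mitotic germ line and of meiosis showed the same direction. Of 10 germ cell fate genes tested, 5 were called higher and 0 lower. The translational repressor gld-1 was at 3.48, 3.33, 2.77 and 4.19 FPKM against 0.845, 0.619, 0.496 and 0.434 FPKM, the stem cell gene sygl-1 at 3.41, 3.49, 3.85 and 4.93 FPKM against 1.3, 1.6, 1.48 and 0.691 FPKM, and daz-1 at 3.58 ± 0.644 against 0.791 ± 0.298 FPKM. Genotype differences were smaller in the signal that maintains germline stem cells. The Notch receptor glp-1 was at 2.84 ± 0.154 against 2.49 ± 0.142 FPKM, its ligand lag-2, made by the distal tip cell of the somatic gonad, at 5.91 ± 0.378 against 5.35 ± 0.720 FPKM, and the stem cell gene lst-1 at 3.76 ± 1.01 against 2.62 ± 0.819 FPKM, and none of these 3 was called. Of 18 meiosis genes tested, 10 were called higher and 1 lower, and without the filter 20 of 37 were higher and 1 lower. The synaptonemal complex gene syp-5 was at 1.75, 1.65, 1.46 and 1.61 FPKM against 0.400, 0.458, 0.425 and 0.339 FPKM. The meiotic cohesin genes rec-8, coh-3 and coh-4 were near the limit of the filter, with rec-8 at 0.979, 1.45, 1.1 and 1.34 FPKM against 0.258, 0.0491, 0.105 and 0.0884 FPKM and coh-3 at 1.05 ± 0.099 against 0.174 ± 0.0753 FPKM.

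Maternal and small RNA genes followed. Only 7 of 27 oogenesis and maternal genes passed the filter, 4 of them higher and 1 lower. Without the filter 17 of 27 were higher and 1 lower. pos-1, a CCCH zinc finger protein of the early embryo, was at 7.48, 4.99, 5.72 and 7.14 FPKM against 0.970, 0.676, 0.957 and 0.835 FPKM, with log2 fold change 1.97, SE 0.13, limma adjusted p = 1.03e-05. Oocyte maturation gene oma-2 was at 1.4 ± 0.0948 against 0.741 ± 0.230 FPKM, while oma-1 and mex-1 were below the filter at 1.39 ± 0.289 against 0.198 ± 0.121 and 0.488 ± 0.220 against 0.171 ± 0.118 FPKM. cav-1, a caveolin, was the member called lower, at 126 ± 7.96 against 205 ± 13.8 FPKM. Among the Argonaute proteins, which bind small RNAs, 7 of 13 tested were called higher and 1 lower, and 7 and 1 without wild-type replicate 1. This list shares members with the P granule list, prg-1 and wago-1 among them, so the counts are not separate. The nuclear Argonaute hrde-1 was at 5.53, 6.59, 6.65 and 6.07 FPKM against 1.83, 1.17, 1.14 and 1.16 FPKM, and ppw-2 at 6.04, 8.41, 7.70 and 8.87 FPKM against 1.77, 0.827, 0.492 and 0.573 FPKM. wago-1 rose from 3.34 ± 0.382 to 7.82 ± 0.314 FPKM. Of 64 genes of DNA replication and mitosis, 30 were called higher and 4 lower, the latter 2 when any 1 library other than double-mutant replicate 2 or wild-type replicate 4 was left out. The replicative helicase subunit mcm-7 was higher at 40.6 ± 0.837 against 26.9 ± 2.04 FPKM.

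Most listed genes of yolk and of sperm were below the filter on low values. None of the 6 vitellogenins, the yolk proteins of adult hermaphrodites, passed the filter, and vit-2 was at 0.0606 ± 0.019 against 0.0209 ± 0.00688 FPKM. Of 88 spermatogenesis genes, 8 passed, 0 were called higher and 2 lower; without the filter 8 of 66 were higher and 5 lower. The sex determination gene fog-3, which directs germ cells to the sperm fate, was called higher at 1.54 ± 0.368 against 0.655 ± 0.351 FPKM, and the values of the genotypes overlapped. The adult cuticle collagen col-19 was at 0.380 ± 0.119 against 0.121 ± 0.0117 FPKM, below the filter in both.

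The machinery of translation was higher. Of 79 cytosolic ribosomal protein genes tested, 57 were called higher and 0 lower, with a median of 0.45. rps-1, a protein of the small subunit, was at 7375, 7585, 7335 and 7182 FPKM against 4769, 5614, 5207 and 5001 FPKM, with log2 fold change 0.52, SE 0.06. rpl-28 was at 1226, 1281, 982 and 889 FPKM against 651, 791, 649 and 614 FPKM. These transcripts are short (median 520 bases, against 1293 for all genes tested), the range in which the median change of all genes was below 0. With libraries centred within length bins 65 were called higher and 0 lower. When columns were rescaled to a common sum the median over all genes became -0.06, and the ribosomal list held 59 higher and 4 lower calls. rpl-41.2, which encodes a very small protein, was at 21023 ± 2078 against 23876 ± 1622 FPKM and was not called on the deposited scale, but was called lower after that rescaling. Of 26 ribosome biogenesis genes 16 were called higher and 1 lower, among them the box C/D small nucleolar ribonucleoprotein nol-56 (206 ± 26.3 to 342 ± 27.7 FPKM) and the nucleolar protein dao-5 (77.3 ± 10.7 to 131 ± 6.34 FPKM). Translation factors gave 21 higher and 2 lower of 32. The 60S maturation factor eif-6 rose from 89.1 ± 12.35 to 159.6 ± 9.93 FPKM and elongation factor eef-2 from 763 ± 90.8 to 1174 ± 175 FPKM. xol-1 lay near the double mutant in these genes, with 7055 ± 611 FPKM of rps-1 and 385 ± 38 FPKM of nol-56.

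Mitochondrial genes did not move as one. All 28 genes of pyruvate oxidation and the citric acid cycle were tested, and 19 were called higher and 0 lower, with a median of 0.33. Citrate synthase cts-1 was at 605, 732, 623 and 642 FPKM against 439.7, 410.3, 411 and 402 FPKM (log2 fold change 0.64, SE 0.07), aconitase aco-2 at 397 ± 20.6 against 275 ± 5.85 FPKM, and the pyruvate dehydrogenase subunit pdhb-1 at 148 ± 14 against 89.9 ± 4.21 FPKM. Oxidative phosphorylation was near the shares of all genes. Of 70 genes tested, 22 were called higher (31.4%) and 21 lower (30%). The ATP synthase subunit atp-2 rose from 951 ± 48.8 to 1467 ± 113 FPKM and the complex III gene ucr-2.3 from 1.43 ± 0.407 to 5.12 ± 1.19 FPKM. Among complex I subunits ndub-3 fell from 772 ± 24.8 to 585 ± 46.4 FPKM and lpd-5 from 473 ± 23.8 to 359 ± 34.9 FPKM. Mitochondrial ribosomal proteins gave 14 higher and 22 lower of 69, with a median of -0.10. These lists have median transcript lengths of 743 and 763 bases. With libraries centred within length bins oxidative phosphorylation gave 25 higher and 9 lower calls. Mitochondrial ribosomal proteins then turned to 20 higher and 4 lower, so their direction depends on this setting. Lower mitochondrial ribosomal calls also numbered 13 or 14 when double-mutant replicate 1 or 4 or wild-type replicate 1 or 4 was left out.

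Heat shock genes were largely higher. Of 26 tested, 20 were called higher and 2 lower, with a median of 0.76. F44E5.4, an inducible cytosolic HSP70 (WBGene00009691, II 11757107 to 11759311), was at 293, 160.5, 193 and 298 FPKM in the double mutant and at 26, 20.7, 26.3 and 26.3 FPKM in wild type (log2 fold change 3.16, SE 0.20, limma adjusted p = 1.13e-05). The small heat shock protein hsp-16.2 was at 149, 79.8, 108 and 169 FPKM against 10.7, 12.2, 13.2 and 13.1 FPKM and hsp-16.48 at 1059, 571, 743 and 1134 FPKM against 102, 103, 111.8 and 111 FPKM. In all 3 genes double-mutant replicates 1 and 4 were above replicates 2 and 3, and the lowest was still well above every wild-type library. Near-identical copies exist in both families, so the level of a single gene is uncertain. The constitutive chaperones moved less. hsp-1 was at 1603, 1651, 1471 and 1574 FPKM against 817, 977, 778 and 862 FPKM, and hsp-110 rose from 92.1 ± 6.64 to 191 ± 16.7 FPKM. All 8 subunits of the cytosolic chaperonin (cct genes, grouped after their values were seen) were called higher, with a median of 0.51.

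Other members of the heat shock list differed in direction. hsp-70, another inducible HSP70, was called higher at 4.59 ± 1.47 against 0.801 ± 0.109 FPKM. So was hsp-12.6, a small heat shock protein expressed under low insulin signalling, at 3.91 ± 0.823 against 0.684 ± 0.0663 FPKM. hsp-12.3 fell from 22.1 ± 1.77 to 13.1 ± 2.42 FPKM. hsf-1, the transcription factor of the response, was called lower at 22.3 ± 3.69 against 27.6 ± 1.424 FPKM, with overlapping values, and the call was lost without wild-type replicate 1 or 3 or double-mutant replicate 2, 3 or 4. In the endoplasmic reticulum 14 of 22 stress genes were called higher and 1 lower. The BiP gene hsp-3 rose from 27.5 ± 1.09 to 48.7 ± 4.24 FPKM and xbp-1, the factor of the unfolded protein response, from 371 ± 17.9 to 544 ± 54 FPKM, while the inducible BiP hsp-4 was at 44.7 ± 6.41 against 43.9 ± 4.84 FPKM and was not called. numr-1, a nuclear protein induced by metals, was picked out after its values were seen. It was at 492, 283, 361 and 538 FPKM against 37.8, 36.2, 46.4 and 46.4 FPKM, with the same order of double-mutant libraries as the small heat shock genes. In xol-1 these genes were close to wild-type levels, with 27.1 to 38.2 FPKM of F44E5.4 and 7.60 to 13.2 FPKM of hsp-16.2.

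Genes of pathogen response and detoxification were more often higher than lower. Of 66 pathogen response genes tested, 32 were called higher and 15 lower, the latter 9 with libraries centred within length bins. irg-5, an infection response gene (WBGene00009429, V 13737010 to 13738474), was at 157, 151, 139.2 and 144 FPKM against 37.1, 38.7, 40.2 and 42.9 FPKM, with log2 fold change 1.87, SE 0.06, limma adjusted p = 2.38e-07. irg-2 was at 194, 95.8, 131 and 183 FPKM against 13.4, 16.4, 16.1 and 15 FPKM, with double-mutant replicates 1 and 4 again highest. dod-6, a gene regulated downstream of DAF-16, rose from 192 ± 91.5 to 918 ± 210.2 FPKM. C-type lectins, secreted proteins with carbohydrate-binding domains, gave 48 higher and 22 lower of 97. clec-63 was at 917, 1306, 1061 and 1082 FPKM against 273, 136, 169 and 122.3 FPKM and clec-209 at 40.5 ± 5.98 against 4.0 ± 0.792 FPKM, whereas clec-229 and clec-230 fell from 11.1 ± 1.91 to 2.54 ± 0.376 and from 342 ± 34 to 139.6 ± 11.3 FPKM. Lysozymes and caenopores gave 12 higher (32.4%) and 11 lower (29.7%) of 37, near the shares of all genes. In this list lys-8 rose from 132 ± 51.4 to 420.4 ± 72.6 FPKM and spp-17 from 231 ± 35.4 to 652 ± 108 FPKM. spp-15 fell from 161 ± 13.1 to 62.2 ± 5.80 FPKM. Without double-mutant replicate 4, or with libraries centred within length bins, the lower count was 7.

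Antimicrobial peptides, with a median transcript length of 354 bases, gave 9 higher and 18 lower of 45, and turned to 16 higher and 13 lower with libraries centred within length bins. cnc-2, a caenacin, was at 35.8, 38.1, 41.3 and 55.2 FPKM against 12.59, 11.5, 0 and 10.9 FPKM, and the call was lost without double-mutant replicate 1 or 4. fipr-7 fell from 570.5 ± 32.8 to 236 ± 42.5 FPKM, and nlp-29, an epidermal peptide induced by wounding and fungal infection, was at 554 ± 49.4 against 629 ± 49.2 FPKM without a call. ABC transporters, which pump small molecules across membranes, gave 26 higher and 4 lower of 39, with a median length of 3984 bases and centred counts of 23 and 5. The P-glycoprotein pgp-5 was at 58.2, 35.9, 47 and 54.4 FPKM against 5.11, 6.98, 9.31 and 10.5 FPKM, pgp-7 at 9.21 ± 2.59 against 1.31 ± 0.136 FPKM, and mrp-4 at 15.4 ± 1.39 against 3.86 ± 0.303 FPKM. Of 59 UDP-glucuronosyltransferases 31 were called higher and 8 lower (5 without wild-type replicate 3), and of 58 cytochrome P450 genes 23 were higher and 9 lower. ugt-57 rose from 4.61 ± 1.81 to 13.8 ± 1.48 FPKM and cyp-13A12 from 3.37 ± 0.306 to 20.8 ± 5.24 FPKM. Among insulin and dauer pathway genes, 9 of 20 were higher and 2 lower. The FOXO factor daf-16 was at 16.7, 15.9, 19.2 and 18.4 FPKM against 8.62, 10.3, 9.12 and 10.4 FPKM, its superoxide dismutase target sod-3 at 12.5 ± 0.843 against 8.44 ± 0.398 FPKM, and the kinase akt-1, which restrains DAF-16, was called lower at 54.9 ± 1.25 against 65.1 ± 7.70 FPKM. The akt-1 call was lost without double-mutant replicate 1, 2 or 3 or wild-type replicate 1, and with any of these left out no gene of the list was called lower by limma.

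Neuropeptide genes were mostly lower. Of 99 neuropeptide genes tested, 60 were called lower and 7 higher, with a median of -0.42. flp-17, an FMRFamide-like peptide of BAG sensory neurons (WBGene00001460, IV 17190204 to 17191891), was at 71.7, 105, 92.7 and 87.4 FPKM in the double mutant and at 293, 177, 222 and 208 FPKM in wild type (log2 fold change -1.31, SE 0.16, limma adjusted p = 0.00017). nlp-43 was at 326, 246, 247 and 271 FPKM against 547, 567, 714 and 644 FPKM, and nlp-46 at 25.2 ± 3.10 against 57.7 ± 5.26 FPKM. Among the genes called higher, nlp-34 was at 838 to 944 FPKM against 298 to 392 FPKM, and nlp-2 rose from 2.36 ± 0.673 to 6.88 ± 0.978 FPKM. The list was not restricted to peptides of neurons: nlp-27, nlp-28 and the epidermal nlp-29 are counted here and with the antimicrobial peptides. Whether nlp-34 is made in neurons was not checked. Neuropeptide transcripts are short (median 557 bases). With libraries centred within length bins 49 were lower and 14 higher, with a median of -0.27. flp-8, at 7.15, 14, 19 and 12.2 FPKM against 33, 29.3, 16.7 and 33.5 FPKM, was called lower with overlapping values. Insulin-like peptides, also signals of neurons, gave 7 higher (25.9%) and 6 lower (22.2%) of 27, near the shares of all genes. Their lower count was 3 without wild-type replicate 1.

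Neuronal lists with longer transcripts were also more often lower than higher. Of 36 genes of the synapse and the dense core vesicle, 16 were called lower and 4 higher, and 23 and 1 with libraries centred within length bins. unc-104, the kinesin that carries synaptic vesicle precursors along the axon, was at 25.6, 19.6, 22.4 and 23.9 FPKM against 41.9, 45.4, 48.5 and 52.5 FPKM (log2 fold change -1.01, SE 0.09). pgal-1, an enzyme of peptide amidation, was at 391, 413, 409.9 and 386 FPKM against 641, 619, 687 and 630.4 FPKM. The SNARE genes differed in direction: ric-4 (SNAP-25) fell from 144 ± 5.16 to 103 ± 3.38 FPKM and syntaxin unc-64 from 74.8 ± 3.66 to 60.4 ± 5.63 FPKM, and synaptobrevin snb-1 rose from 397 ± 20.7 to 459.9 ± 25.8 FPKM, a call lost with columns rescaled to a common sum. Of 52 genes of sensory cilia, 18 were called lower (34.6%, against 28.4% of all genes) and 1 higher, and 26 and 0 with libraries centred within length bins. daf-6, a Patched-related protein of the glia that form the amphid channel, was at 27.5, 25.4, 24.9 and 24.6 FPKM against 45, 43, 45.9 and 42.0 FPKM. che-2 and che-3 of intraflagellar transport were at 5.32 ± 0.137 against 6.26 ± 0.291 and 4.81 ± 0.341 against 5.15 ± 0.164 FPKM without a call, and che-10 was the single gene called higher, at 4.44 ± 0.196 against 3.07 ± 0.730 FPKM, and it was not called with libraries centred within length bins, where che-2 and che-3 were called lower.

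Genes of the touch receptor neurons were lower by like amounts. mec-7, their specialised beta-tubulin, was at 519, 407, 386 and 402 FPKM against 582, 714, 631 and 683 FPKM, and the tubulin acetyltransferase mec-17 at 485, 410.3, 386 and 405 FPKM against 579.9, 660.4, 633 and 659 FPKM. The homeodomain factor mec-3 fell from 20.9 ± 1.61 to 13.4 ± 1.04 FPKM and the mechanosensory channel subunit mec-4 from 35.3 ± 3.28 to 22.6 ± 2.16 FPKM. The log2 fold changes of these 4 genes were -0.61, -0.59, -0.61 and -0.62. In the mec family as a whole, grouped after values were seen, 9 of 15 genes were called lower and 0 higher. Cholinergic identity genes did not follow. The choline acetyltransferase cha-1 was at 16.6 ± 0.532 against 16.6 ± 0.863 FPKM and was not called, the vesicular transporter unc-17 was called higher at 14.7 ± 1.39 against 12.4 ± 0.291 FPKM, a call lost under several alternative settings, and the choline transporter cho-1 rose from 9.81 ± 0.756 to 13.7 ± 0.236 FPKM. The AFD guanylate cyclases gcy-23 and gcy-18, which serve thermosensation, rose from 0.493 ± 0.548 to 2.58 ± 0.613 and from 2.26 ± 0.690 to 5.04 ± 0.713 FPKM, with wild-type replicate 1 the highest of its group in both. Of the 25 transmitter identity genes 12 were lower and 6 higher.

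Receptors and channels were also more often lower than higher. Of 1355 chemoreceptor genes 193 passed the filter, and 74 of these were called lower and 22 higher. With libraries centred within length bins 66 were lower and 30 higher. Without the filter the balance was closer to even, with 114 of 1200 lower and 94 higher and a median of 0.01. srlf-36 fell from 6.47 ± 1.77 to 2.14 ± 0.796 FPKM and sri-36 rose from 0.458 ± 0.243 to 4.48 ± 1.54 FPKM. Among 109 ligand-gated, degenerin and potassium channel genes, 48 were called lower and 10 higher, the latter 5 without wild-type replicate 4. The potassium channel genes twk-1 and twk-11 moved apart, twk-1 from 13.3 ± 3.28 to 7.62 ± 1.12 FPKM and twk-11 from 0.688 ± 0.246 to 1.93 ± 0.129 FPKM.

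**Figure D5:**
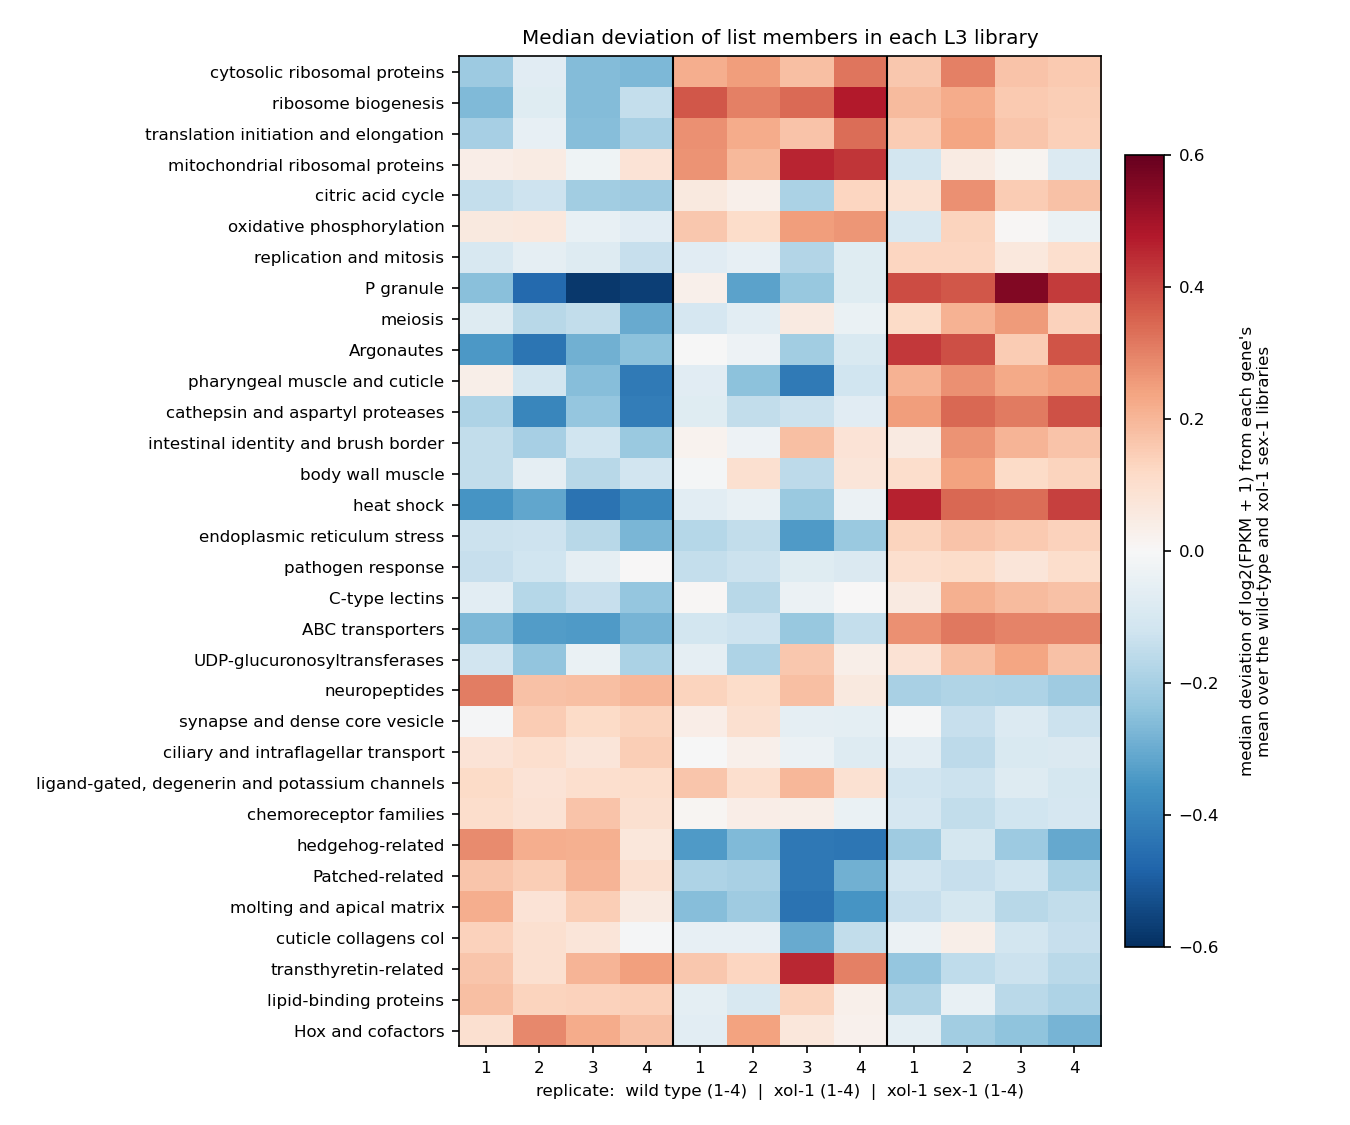
Median over list members of the deviation of log2(FPKM + 1) from each gene's mean over the wild-type and xol-1 sex-1 libraries, for 32 lists (rows) in the 12 L3 libraries (columns; replicates 1 to 4 of wild type, xol-1 and xol-1 sex-1). P granule, heat shock and protease lists lie above 0 in all 4 xol-1 sex-1 libraries and hedgehog-related and molting lists lie below 0 in both mutants.

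Hedgehog-related and molting genes were more often lower than higher. Hedgehog-related proteins in the worm are secreted ligands of the epidermis that are expressed in step with the molts. Of 59 genes, 38 were tested, 26 were called lower and 2 higher, with a median of -0.43. The higher count was 1 without double-mutant replicate 3 or 4 or wild-type replicate 2 or 4. grl-21 (WBGene00001730, IV 10737474 to 10738191) was at 316, 328, 327 and 335 FPKM against 1018, 1011, 1049 and 1099.9 FPKM, with log2 fold change -1.67, SE 0.05, limma adjusted p = 2.19e-07, and stood higher still in xol-1, at 1401 to 1508 FPKM. wrt-8 was at 27, 28.2, 24 and 22.6 FPKM against 90.4, 73.1, 81 and 67.7 FPKM, grl-1 at 116.1 ± 17.9 against 233 ± 16.8 FPKM and grd-12 at 10.2 ± 1.46 against 21.3 ± 4.15 FPKM. All 9 warthog (wrt) genes tested, grouped after their values were seen, were called lower, and 8 without wild-type replicate 1. In the grl and grd families 10 of 16 and 6 of 11 were lower, with 1 higher in each. In the Patched-related family 12 of 24 were lower and 5 higher. ptr-20 was called lower, at 29.3 to 35.3 FPKM against 55.0 to 59.8 FPKM, and ptr-22 was called higher, at 8.05 to 12.7 FPKM against 1.04 to 1.75 FPKM. ptc-1 and ptc-3, the true Patched homologues, did not pass the filter.

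Molting genes fell with the hedgehog-related set. Of 59 genes of molting and the apical extracellular matrix, 30 were called lower and 2 higher, the latter 0 or 1 when any library other than wild-type replicate 1 was left out. cut-4, a cuticlin, was at 63.3, 53.7, 50.8 and 53.3 FPKM against 100.9, 115.9, 111 and 110 FPKM (log2 fold change -0.98, SE 0.07), cutl-23 at 21.8 ± 2.04 against 42.9 ± 1.64 FPKM, mlt-10 at 109 ± 12.9 against 163 ± 33.1 FPKM and mlt-9 at 30.7 ± 2.17 against 37.1 ± 0.789 FPKM. mlt-8, at 528 ± 28.2 against 633 ± 63.7 FPKM, was called lower with overlapping values, and the call was lost without wild-type replicate 1 or 2 or double-mutant replicate 3 or 4. The hedgehog-related and molting lists were lower in xol-1 too: the median deviation per library from the gene means of wild type and double mutant was -0.43 to -0.26 in xol-1, -0.31 to -0.10 in the double mutant and 0.07 to 0.28 in wild type for hedgehog-related genes, and -0.44 to -0.22, -0.17 to -0.11 and 0.05 to 0.22 for molting genes.

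Collagens were divided. Of 156 col genes 96 were tested, 37 were called lower and 27 higher, the latter close to the share of all genes. Without the filter on low values 45 were higher and 38 lower. col-118 was called lower, at 776 to 1086 FPKM against 1539 to 1938 FPKM and col-71 fell from 9.87 ± 0.778 to 3.56 ± 0.636 FPKM. col-142 was called higher, at 41.4 to 66.4 FPKM against 4.13 to 9.86 FPKM and col-76 rose from 6.28 ± 2.03 to 25.9 ± 2.49 FPKM. Among 16 collagens named for body shape or blisters 8 were lower and 5 higher, the latter falling to 2 or 3 when any library other than wild-type replicate 1 was left out. rol-6 was at 1104, 1208, 1070.2 and 1026 FPKM against 1990.4, 1598, 1731 and 1363 FPKM, lon-3 at 250.0 ± 11.6 against 408 ± 48.8 FPKM and sqt-1 at 1037 ± 96.3 against 1458 ± 204 FPKM. dpy-13 was higher at 2216 ± 133 against 1761 ± 222 FPKM, and dpy-5 was called higher at 2472 ± 247 against 1922 ± 346 FPKM with overlapping values. phy-2, a prolyl 4-hydroxylase that modifies collagen chains, fell from 141.9 ± 17.7 to 74.9 ± 7.58 FPKM. bus-12, a nucleotide sugar transporter that affects the cuticle surface, fell from 44.2 ± 4.81 to 27.9 ± 3.05 FPKM, one of 18 lower and 5 higher calls among 37 glycosylation and surface genes.

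Transthyretin-related and lipid-binding proteins were more often lower than higher. Of 46 transthyretin-related genes, a nematode family of small secreted proteins, 27 were called lower and 2 higher, and 21 and 3 with libraries centred within length bins. The higher count was 1 without double-mutant replicate 3 or 4 and 4 without wild-type replicate 4. ttr-15 was at 1123, 1211, 1146 and 1112 FPKM against 2187, 2352, 1932 and 2492 FPKM and ttr-32 at 61.6 ± 8.09 against 137 ± 11.4 FPKM. Lipocalin and fatty acid binding proteins gave 14 lower and 2 higher of 24, and 12 and 4 with libraries centred within length bins. lbp-2 fell from 91.4 ± 3.15 to 52.5 ± 3.64 FPKM and far-4 rose from 1.08 ± 0.712 to 8.0 ± 2.28 FPKM. Fatty acid desaturases and elongases gave 8 lower and 2 higher of 16, the latter 1 without wild-type replicate 3 or 4. elo-5, an elongase of branched-chain fatty acids, fell from 807 ± 72.5 to 513 ± 73 FPKM.

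Changes in regulators of development were mostly small. Of 20 heterochronic genes, which time the larval stages, 4 were called higher and 5 lower, the latter 3 without wild-type replicate 2. With libraries centred within length bins 1 was higher. lin-28, an RNA-binding protein that is high in early larvae, was at 115.8, 106, 123 and 117 FPKM against 120.0, 115.1, 141 and 117 FPKM and was not called, and lin-29, the zinc finger factor of the adult switch, was at 5.61, 4.77, 6.60 and 5.49 FPKM against 8.14, 8.31, 9.07 and 5.36 FPKM without a call. lin-29 was called lower without double-mutant replicate 3 or wild-type replicate 4. hbl-1 fell from 60.3 ± 4.15 to 48.4 ± 3.76 FPKM and lin-46 from 28.8 ± 2.71 to 22.2 ± 1.67 FPKM. lin-14 was called lower at 93.1 ± 7.44 against 109 ± 7.07 FPKM with overlapping values. The nuclear receptor daf-12 rose from 19.7 ± 1.88 to 27 ± 0.616 FPKM. Of 9 Hox genes and cofactors tested, 6 were called lower and 0 higher. The posterior Hox genes egl-5 and nob-1 were at 15.2, 11.8, 11.9 and 11.3 FPKM against 16.19, 23.9, 22.8 and 22.6 FPKM and at 81.3 ± 13.1 against 114.5 ± 11.3 FPKM. The anterior gene ceh-13 was called lower at 41.5 ± 6.95 against 56.1 ± 9.11 FPKM, a call lost without wild-type replicate 1. lin-39 was at 2.67 ± 0.668 against 4.83 ± 4.07 FPKM and mab-5 at 42.5 ± 1.64 against 46.4 ± 2.33 FPKM, and neither was called.

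Vulval and seam lists held more lower than higher calls. Of 31 vulval genes 13 were lower and 3 higher. mek-2, the MAP kinase kinase of vulval induction, was at 75.2, 74.2, 74.6 and 71 FPKM against 118.4, 118.2, 118.3 and 121 FPKM. nhr-67, a nuclear receptor of the vulva and anchor cell, rose from 3.43 ± 0.924 to 9.60 ± 2.0 FPKM. egl-17, a fibroblast growth factor used as a vulval marker, was at 2.99 ± 0.826 against 2.83 ± 0.574 FPKM and was not called. Of 22 seam cell and epidermal fate genes 9 were lower and 4 higher. rnt-1, the Runx factor of seam cell division, fell from 4.08 ± 1.08 to 1.81 ± 0.707 FPKM.

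Genes of sex and dosage compensation moved little. Of 12 dosage compensation genes 7 were called higher and 2 lower on the deposited scale. Their median transcript length was 4157 bases, and the counts were 4 and 4 with libraries centred within length bins. dpy-27, the condensin subunit specific to the complex, was at 44, 42.0, 41.3 and 43 FPKM against 32.5, 35.2, 34.6 and 34 FPKM, and dpy-28 at 24.5, 23, 22.7 and 24.3 FPKM against 16.9, 17.6, 18.8 and 18.7 FPKM. Of the loading factors, sdc-3 was called higher at 17 ± 0.735 against 13.3 ± 0.701 FPKM, while sdc-2 (10.7 ± 0.264 against 10.5 ± 0.538 FPKM) and sdc-1 (1.37 ± 0.263 against 1.73 ± 0.103 FPKM) were not called. set-4, the H4K20 methyltransferase of X chromatin, fell from 39 ± 1.424 to 32.3 ± 1.80 FPKM. In the sex determination pathway the terminal regulator tra-1 was at 17.8 ± 1.62 against 18.9 ± 2.05 FPKM without a call, tra-2 was called higher at 18.9 ± 0.581 against 15.6 ± 0.938 FPKM, a call lost with libraries centred within length bins, fem-2 rose from 23.1 ± 1.54 to 31.2 ± 1.25 FPKM, and the male signal her-1 was below the filter at 0.192 ± 0.0939 against 0.0996 ± 0.0777 FPKM. Among 10 genes of male development 5 were lower and 2 higher, the latter 0 or 1 when any library other than wild-type replicate 1 was left out. The Wnt ligand lin-44 was called lower, at 67.2 to 95.4 FPKM against 117.7 to 142.1 FPKM, and mab-3 was at 1.14 ± 0.234 against 1.4 ± 0.495 FPKM without a call. By chromosome, 21.4% of 2078 X-linked genes tested were called higher and 32.6% lower, and the other nuclear chromosomes ran from 22.8% to 28.3% higher and from 24.9% to 29.9% lower.

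Some small families held calls mostly in 1 direction, and these too were picked out after their values were seen. Of 12 nspb genes, which encode short nematode-specific peptides, 11 were called lower and 0 higher, with a median of -1.33. nspb-1 was at 54.7, 73.2, 68.9 and 64.2 FPKM against 194, 182, 176 and 191 FPKM. All 6 mam genes tested were called lower. Of 24 cuticlin-like cutl genes 15 were lower and 1 higher, and these genes are also counted in the molting list above. Among rising families 15 of 24 nuclear pore (npp) genes were called higher and 1 lower with a median of 0.28. These npp transcripts are long (median 2599.5 bases), and with libraries centred within length bins 12 were higher and 0 lower, with a median of 0.19. Of 10 scl genes, which encode secreted CAP-domain proteins, 6 were higher and 0 lower with a median of 1.4.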

How the data were processed

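The authors deposited 1 FPKM table for the L3 samples, with 21975 genes and 4 columns per genotype. Per the submitters' processing notes, the tools named were cutadapt 2.3, FastQC 0.11.8, Salmon 1.9.0 and DESeq2 1.42.0 and the genome build was WBcel235, with no role given for any of them. Which tool made the FPKM values, and whether strand was used in counting, is not given in the sources used here. Samples were grouped by the genotype in their labels. Nothing in the labels says that replicates came from separate cultures, so p-values measure the spread between these samples, which may be technical.

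Values were analysed as log2(FPKM + 1) for genes whose mean over the 8 libraries reached 1 FPKM (13583 genes; 8392 left out) with limma 3.58.1 in R 4.3.3, using a mean-variance trend and robust moderation, 2 groups and no block. P-values were adjusted by Benjamini-Hochberg over all genes tested, with a threshold of 0.05. The fit was tested on simulated data. Names, positions and transcript lengths came from Ensembl release 115, in which every gene ID was found. Replicate numbers did not pair the samples: deviations of same-numbered libraries correlated between -0.180 and 0.0563. Other tables of the series were not used, and 13 of their columns had no sample here.

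The genotypes, the 81 gene lists and the rules were chosen with earlier results of these data known. Of the listed gene names, 26 had no match and were not analysed here. Genes named in the text were sex-1, xol-1, the 10 largest rises and 10 largest falls among called genes without overlap between genotypes, up to 4 such genes per direction in each list, and the first 3 written in a list. These genes were instead named after their values were seen: abu-14, act-5, asp-1, asp-3, asp-6, cpr-4, dpy-5, eef-2, egl-17, flp-8, fog-3, hlh-1, hsp-110, hsp-16.48, idpc-1, mec-17, nspb-1, numr-1, pha-4, phat-4, rpl-41.2, rps-1, tni-4, tnt-4, ttr-15 and vit-2. Alternatives were other pseudocounts and filters, 2 rescalings, a fit with all 12 L3 samples, a fit without trend, a 1.5-fold minimum, a replicate block and leaving out each library. Centring within 10 bins of transcript length was added after seeing the data.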

Additional observations from a re-analysis of the deposited data

Results flagged for a closer look

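Among 430 groups of 4 libraries looked at, one for each named gene and genotype, 35 held a library whose gap to its nearest neighbour took a larger share of the range than the critical value of Dixon's test, which chance passes in about 1 in 20 groups. In 16 of the 35 that library was wild-type replicate 1, standing above the other wild-type libraries. These gaps, as a share of the range, were 0.967 for F28B4.3, 0.906 for R193.2, 0.835 for abu-14, 0.945 for abu-8, 0.936 for alp-1, 0.937 for ceh-13, 0.991 for daz-1, 0.902 for deps-1, 0.958 for hrde-1, 0.914 for idpc-1, 0.835 for lpd-5, 0.956 for myo-1, 0.975 for myo-2, 1 for pgl-1, 0.851 for phy-2 and 1 for xol-1. The named genes do not stand for all genes. Over all 13583 genes tested, wild-type replicate 1 was counted far above its group in 180 genes. Double-mutant replicate 2 was counted far above its group in 200 genes and double-mutant replicate 1 in 141.

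The other gaps fell on several libraries. Wild-type replicate 1 stood below its group in egl-5 (0.839). Wild-type replicate 2 stood above its group in ptc-3 (1) and spp-27 (0.875). Wild-type replicate 2 stood below its group in F44E5.4 (0.935). Wild-type replicate 3 stood below its group in cnc-2 (0.869) and fipr-7 (0.882). Wild-type replicate 4 stood above its group in hsp-12.3 (0.843) and mek-2 (0.902). Double-mutant replicate 1 stood above its group in egl-5 (0.846), lin-44 (0.865) and mec-7 (0.842). Double-mutant replicate 1 stood below its group in abu-8 (0.852) and srlf-36 (0.916). Double-mutant replicate 2 stood above its group in act-5 (0.861), col-19 (0.943) and nol-56 (0.847). Double-mutant replicate 3 stood above its group in xol-1 (1). Double-mutant replicate 4 stood above its group in coh-3 (0.959). Double-mutant replicate 4 stood below its group in cha-1 (0.973). A gap of 1 means that the other 3 libraries were listed at 0.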

How the results depend on the processing

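Both counts stayed within 1.5 times their values on the deposited scale under every alternative run except the 1.5-fold minimum, which left 1443 genes higher and 1065 lower. Leaving out 1 library at a time gave 3087 to 3377 higher and 3422 to 3759 lower, with 6417 to 6702 of the 7368 calls shared. Columns rescaled to a common sum gave 3217 higher and 4124 lower. No called gene named in the text changed sign under any alternative run. The balance of counts did turn: lower calls outnumbered higher ones on the deposited scale, but higher calls outnumbered lower ones without a filter (4219 and 3866), with the 1.5-fold minimum and with libraries centred within length bins (3551 and 3452). Under that centring mitochondrial ribosomal proteins turned from 14 higher and 22 lower to 20 and 4, and antimicrobial peptides from 9 and 18 to 16 and 13. Oxidative phosphorylation turned to 20 higher and 24 lower without double-mutant replicate 2 and to 22 and 27 with columns rescaled to a common sum. Lysozymes and caenopores turned to 10 and 12 without double-mutant replicate 2. The balance also turned under at least 1 alternative for insulin-like peptides, col collagens, heterochronic, spermatogenesis, F-box, histone, one-carbon, mitochondrial stress, ceh homeobox, claudin-like, fatty acid synthesis, late cuticle and distal tip cell lists. Replication and mitosis genes gave 0 higher and 1 lower with the 1.5-fold minimum. With libraries centred within bins of transcript length 28 of 162 list counts moved by more than 1.5 times, against 8 after rescaling to a common sum, and the cause was not tested. The replicate block gave 3244 higher and 3477 lower, of which 6556 calls were shared. Since the numbers do not pair the samples (0 double-mutant libraries correlated best with their own number), that fit is a check only. Under the block ceh-13, lin-14 and snb-1 were no longer called and lst-1 and nlp-29 were. Genes near 1 FPKM, germline genes among them, are measured with few fragments, and P granule and meiosis counts fell to 3 and 1 higher with a minimum of 5 FPKM.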
